A study of Mus musculus with 18 samples.

Results

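A set of 10 X-linked genes with low levels in undifferentiated female mouse embryonic stem (ES) cells and much higher levels after differentiation was followed through 18 RNA-seq libraries. They are *Amot*, *Bgn*, *Capn6*, *Arhgap6*, *Arhgef6*, *Aff2*, *Dgkk*, *Asb12*, *C430049B03Rik* and *3830417A13Rik*, and all 10 listed symbols were found in every library. They were listed as X-linked genes with a low level in wild-type (wt) *Tsix*-stop cells at day 0 (D0) and a level at least 8-fold higher at day 15 (D15), which means that they were chosen by their levels in the wt *Tsix*-stop libraries of both days, and their rise there is described without a test. The list is a selection, since 34 X-linked genes met the same fold with a D0 level no higher than that of the listed genes, 24 of them not listed, out of 492 X-linked genes tested and 24346 symbols in all.

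*Tsix*-stop cells are hybrid female ES cells from a cross of strain-129 and *cast* mice, with a transcriptional stop in *Tsix* on the strain-129 X chromosome, so that this X becomes the inactive X (Xi) on differentiation and the *cast* X stays active (Xa). In this line there were 2 wt libraries, 2 libraries of *Kdm6a* KO cells with a homozygous deletion within exons 2 to 4, and 1 library of a CRISPR control (treated with CRISPR, not deleted) on each day, D0 being ES cells and D15 embryoid bodies (EBs) grown without LIF. E8 cells are hybrid female ES cells from a BL6 by *cast* cross in which either X can be inactivated, with 2 wt libraries and 2 libraries of *Kdm6a* KO cells, a promoter deletion carried by 1 clone, labelled D7 and D15. For E8 the methods describe libraries of earlier days without replicates, so the labelled days and replicate numbers are followed here and could not be checked. Per the methods the *Tsix*-stop wt libraries are biological replicates and the KO libraries come from 2 clones, which the labels number without naming them, and ES cells were kept on mouse embryonic fibroblasts. No source says whether the E8 replicates came from separate cultures, so their p-values measure the spread between these libraries, which may be technical.

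In female mammals one X chromosome is silenced early in development, when the long noncoding RNA *Xist* is switched on from the future Xi, coats that chromosome and is followed by deposition of H3K27me3 along it. KDM6A is an X-linked demethylase that removes H3K27me3, escapes X inactivation and is used by differentiating cells to open developmental genes. X inactivation is usually followed in genes that ES cells already express from both X chromosomes, and most of the genes described here are not among them.

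The *Tsix*-stop libraries held between 51091148 and 68796172 counts, with 9210228 to 12095544 reads assigned to an allele by SNPs, and the depth of the E8 libraries, given as transcripts-per-million (TPM), is unknown. *Kdm6a* checks the labels of E8, at 46.7 to 47.8 TPM in wt and 0.00578 to 0.0319 TPM in KO. In *Tsix*-stop cells the count over the whole gene also holds exons outside the deleted part, so it cannot show the deletion. It stood at 109 to 209 counts-per-million (CPM) in wt, 28 and 48.4 CPM in KO replicate 2 and 93.3 and 130 CPM in KO replicate 1, beside 93.3 and 128 CPM in the CRISPR control. *Xist* was at 769 and 399 CPM in wt at D15, 93.0 and 232 CPM in KO and 340 CPM in the CRISPR control. Markers of fibroblasts and stroma (12 genes, all detected) summed to 6990 to 7570 CPM in wt at D15, 579 to 1040 CPM in KO and 831 CPM in the CRISPR control. By the test described below 11 of the 12 were called lower in KO, as were 11.1% of all genes tested. *Dcn* and *Lum* passed its filter on low counts through the wt D15 libraries alone, so they could only be lower. Visceral endoderm markers (8 genes) summed to 573 to 596 CPM in wt at D15, 21.3 to 43.9 CPM in KO and 19.4 CPM in the CRISPR control. In E8 KO cells, X-linked genes from *Maoa*, which starts at position 16619698, to the far end of the chromosome were largely without *cast* reads, whereas the last gene with *cast* reads before it, *Cask*, had 48.8% BL6 reads.

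All 10 genes lie on the X chromosome of mm10, spread from *Dgkk* (chrX:6779306-6948363, plus strand) to *Arhgap6* (chrX:168795099-169304435, plus strand). *C430049B03Rik* is a processed transcript and the others are protein-coding. The stretches of 250 bases just before the RefSeq start (build GRCm38.p6) are shown for 4 of the genes that were at least 2-fold below the wt mean in the CRISPR control and called lower in KO at D15, *Bgn*, *Amot*, *Capn6* and *Asb12*, each 5′ to 3′ on the strand of its gene. *Arhgef6* and *Aff2* met the same condition and are not shown. Capitals mark matches on either strand to the CCAAT box, searched with the letters of its name, to the GC box, searched as GGGCGG, and to the MEF2 box, which is the longer run of capitals in the *Asb12* window.
Bgn, chrX:73483351-73483600, plus strand: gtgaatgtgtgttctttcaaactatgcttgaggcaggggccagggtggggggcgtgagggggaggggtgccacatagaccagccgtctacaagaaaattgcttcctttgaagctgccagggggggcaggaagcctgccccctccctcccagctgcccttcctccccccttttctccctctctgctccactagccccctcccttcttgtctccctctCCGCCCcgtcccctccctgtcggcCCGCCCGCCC
Amot, chrX:145487640-145487889, minus strand: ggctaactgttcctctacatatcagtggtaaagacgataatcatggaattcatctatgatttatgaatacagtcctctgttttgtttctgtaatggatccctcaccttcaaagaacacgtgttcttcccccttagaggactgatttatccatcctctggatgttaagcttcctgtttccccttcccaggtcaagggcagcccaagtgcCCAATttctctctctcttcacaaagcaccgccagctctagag
Capn6, chrX:143827413-143827662, minus strand: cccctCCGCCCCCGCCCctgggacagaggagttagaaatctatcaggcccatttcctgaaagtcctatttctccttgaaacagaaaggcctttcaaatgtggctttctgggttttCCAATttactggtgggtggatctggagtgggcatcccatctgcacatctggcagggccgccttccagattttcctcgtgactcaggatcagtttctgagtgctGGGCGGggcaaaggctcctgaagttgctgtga
Asb12, chrX:95478130-95478379, minus strand: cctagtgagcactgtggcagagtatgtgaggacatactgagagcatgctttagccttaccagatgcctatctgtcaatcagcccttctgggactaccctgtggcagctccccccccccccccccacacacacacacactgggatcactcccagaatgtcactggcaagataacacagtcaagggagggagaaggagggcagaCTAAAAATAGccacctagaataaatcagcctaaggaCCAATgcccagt

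The *Bgn* window holds GC boxes and 7 CpG, the *Asb12* window has no CpG, and the median window of all promoters has 6. *Asb12* carries a MEF2 box, which 0.103% of all 32851 promoter windows have, next to a CCAAT box. The 9 listed genes with a promoter entry had 12 windows, of which 4 held CCAAT (33.8% of all windows) and 5 held GGGCGG (32.7%), while TATAAA (12.4%) and GGAATG, the core bound by TEAD factors (12.6%), were in none of their windows. These are letter matches only. *C430049B03Rik* had no promoter entry.

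*C430049B03Rik* is shown by the microRNAs that lie inside its RefSeq span (chrX:53053112-53057190, minus strand), since they are the known products of this noncoding locus. The seed, bases 2 to 8, is in capitals.
mmu-miR-322-5p: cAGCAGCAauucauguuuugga
mmu-miR-503-5p: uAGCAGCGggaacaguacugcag
mmu-miR-351-5p: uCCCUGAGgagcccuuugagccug
No 2 of the 3 share a whole seed. The microRNAs themselves were not measured in these libraries, so the values below are those of the host transcript.

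In wt *Tsix*-stop cells the group means rose from D0 to D15 by 10.8-fold for *Capn6*, the lowest, to 102-fold for *Bgn*. *Asb12* rose at least 213-fold, since its D0 level lies under the floor of 3 counts per library. The other genes stood between these values, *C430049B03Rik* at 13.3-fold, *Arhgef6* at 13.7-fold, *Dgkk* at 15.8-fold, *3830417A13Rik* at 18.4-fold, *Amot* and *Arhgap6* at 35.5-fold each and *Aff2* at 45.5-fold. Around the threshold, *Sh3bgrl* rose 7.51-fold and *Ftx* 7.15-fold, just outside it, while *Gpr50* at 8.24-fold, *Rhox9* at 8.79-fold and *Mbnl3* at 9.54-fold were just inside it and are not listed. Of the 24 genes that met the rule without being listed, those with a large fold included *Col4a6* (251-fold), *Col4a5* (227-fold), *1600014K23Rik* (79.0-fold) and *Nrk* (68.3-fold).

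Compared per length, the listed genes covered a wide range at wt D15. *Amot* (151 and 106 TPM), *Bgn* (133 and 122 TPM) and *3830417A13Rik* (122 and 105 TPM) overlapped at the top of the order. They were followed by *Capn6* at 70.6 and 63.1 TPM, *C430049B03Rik* at 42.0 and 28.8 TPM and *Asb12* at 27.1 and 23.5 TPM, with no overlap between these neighbours. *Arhgef6* (16.7 and 11.6 TPM) and *Dgkk* (14 and 11.8 TPM) overlapped, and *Aff2* (6.94 and 5.64 TPM) and *Arhgap6* (2.75 and 2.15 TPM) were lowest.

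**Figure D1:**
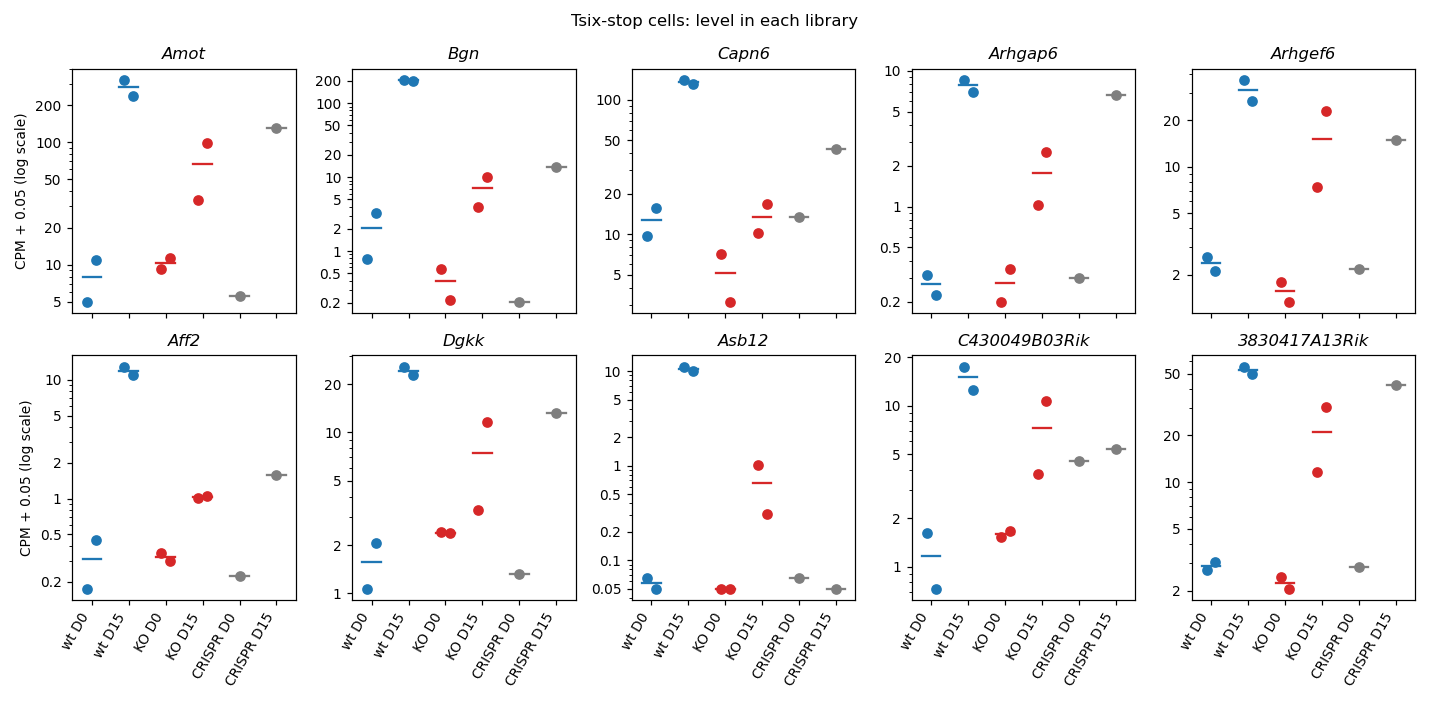
Level of each of the 10 listed genes in the 10 *Tsix*-stop libraries, as CPM plus 0.05 on a log axis that differs between panels. Each point is 1 library and each bar the mean of its group (wt blue, KO red, CRISPR control grey, with 1 library a day). In every panel both KO libraries at D15 lie below both wt libraries at D15.

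After differentiation, the KO libraries held less RNA of all 10 genes than the wt libraries, and 9 of the 10 were called lower. A gene was called at a false discovery rate of at most 0.1 (edgeR's quasi-likelihood test with Benjamini-Hochberg adjustment over 13121 genes) and a change of at least 2-fold. Of all genes tested 11.1% were called lower, and of X-linked genes 11.8%. These figures are no measure of the listed genes, which were chosen for a high level in the same wt D15 libraries. Autosomal genes that met the same fold and level make a nearer comparison, and 66.3% of those 1069 genes were called lower, as were 75% of the 24 unlisted X-linked genes. *Aff2* and *Asb12* passed the filter on low counts only through the wt D15 libraries, so they could differ in 1 direction only. The number of listed genes called was 4 without wt replicate 1 at D15 and 5 without wt replicate 2, of 8 then tested, and 7 with the CRISPR control counted as wt. In these bulk libraries, fewer cells of a type and less RNA per cell cannot be told apart.

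*Amot* encodes angiomotin, a junction protein that binds the Hippo pathway's effector YAP. It stood at 4.92 and 10.9 CPM in the wt libraries at D0 and at 325 and 237 CPM at D15. The KO libraries had 9.19 and 11.3 CPM at D0 but 33.9 and 98.9 CPM at D15, and the CRISPR control had 5.49 and 130 CPM. The groups overlapped at D0, while at D15 both KO libraries were below the CRISPR control, which was itself below both wt libraries. The difference of KO from wt at D15 was −2.10 ± 0.49 (log2, SE, 2 libraries a group, adjusted p = 0.0121).

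*Bgn* encodes biglycan, a small leucine-rich proteoglycan of the extracellular matrix, and of the 10 genes it had the largest log2 difference between KO and wt at D15. Its wt libraries rose from 0.742 and 3.23 CPM to 208 and 198 CPM. The KO libraries had 0.514 and 0.171 CPM at D0 and 3.91 and 10.1 CPM at D15, and the CRISPR control 0.156 and 13.6 CPM. At D15 the CRISPR control thus lay close to the KO libraries and far from wt, at 6.72% of the wt mean, beside 1.93% and 4.95% in KO. KO differed from wt by −4.88 ± 0.63 (log2, adjusted p = 0.00108, edgeR).

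*Capn6* encodes a calpain that lacks the catalytic cysteine of its family and binds microtubules. It had 9.6 and 15.7 CPM in wt at D0 and 141 and 131 CPM at D15, while the KO libraries had 7.08 and 3.10 CPM and then 10.2 and 16.8 CPM. The CRISPR control went from 13.3 to 42.7 CPM. The KO libraries at D15 were within or just above the range of the wt ES cells, and the CRISPR control lay between KO and wt. The difference of KO from wt at D15 was −3.35 ± 0.40 (log2, adjusted p = 0.000793, edgeR).

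The next pair acts on small GTPases. *Arhgap6* encodes a GTPase-activating protein that switches RhoA off, and it had 8.56 and 6.96 CPM in wt at D15, 0.986 and 2.48 CPM in KO and 6.54 CPM in the CRISPR control, from 0.149 to 0.296 CPM in all libraries at D0. The CRISPR control was at 84.2% of the wt mean and above both KO libraries, and KO differed from wt by −2.18 ± 0.45 (log2, adjusted p = 0.00775, edgeR). *Arhgef6* encodes alpha-PIX, an exchange factor that switches Rac and Cdc42 on. It stood at 36.7 and 26.6 CPM in wt at D15, at 7.29 and 23.0 CPM in KO and at 14.8 CPM in the CRISPR control, after 1.28 to 2.55 CPM at D0. Its second KO library came near the lower wt library, and the difference of −1.08 ± 0.44 (log2, adjusted p = 0.0907, edgeR) was close to the limit. The call was lost with KO replicate 1 at D15 left out (−0.46, adjusted p = 0.277), with any 1 wt library of either day left out (−0.85 to −1.28, adjusted p = 0.12 to 0.333) and with the CRISPR control counted as wt (−0.78, adjusted p = 0.293).

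*Aff2* encodes a nuclear protein of the AF4/FMR2 family, known in people from an intellectual disability caused by its silencing. Both wt libraries at D15 were high, at 12.9 and 10.9 CPM, and both KO libraries, at 0.969 and 0.993 CPM, and the CRISPR control, at 1.52 CPM, were low. D0 libraries ranged from 0.124 to 0.401 CPM. The KO libraries agree closely with each other here, and KO differed from wt by −3.61 ± 0.41 (log2, adjusted p = 0.000619, edgeR).

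*Dgkk* encodes a diacylglycerol kinase, which turns the lipid messenger diacylglycerol into phosphatidic acid. It had 25.6 and 22.6 CPM in wt at D15, 3.23 and 11.6 CPM in KO and 13.2 CPM in the CRISPR control, from 1.02 to 2.36 CPM at D0. KO replicate 1 remained near the D0 range while KO replicate 2 and the CRISPR control were near each other. The difference from wt was −1.72 ± 0.51 (log2, adjusted p = 0.032, edgeR), and the call, not the size, was lost without wt replicate 1 at D15 (−1.64, adjusted p = 0.132) and without wt replicate 2 (−1.79, adjusted p = 0.111).

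*Asb12* encodes an ankyrin repeat protein with a SOCS box, the part by which such proteins join Cullin 5 ubiquitin ligases. It was at 11.1 and 9.97 CPM in wt at D15, 0.969 and 0.257 CPM in KO and 0 in the CRISPR control, and at D0 the level was 0 or at most 0.0156 CPM in every library. The wt mean at D15 was at least 206-fold higher than the CRISPR control, again against the floor of 3 counts. KO differed from wt by −4.09 ± 0.57 (log2, adjusted p = 0.00209, edgeR), a call that was lost when the CRISPR control was counted as wt (−3.51, adjusted p = 0.204).

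*C430049B03Rik*, the host of the 3 microRNAs shown above, had 17.4 and 12.4 CPM in wt at D15, 3.72 and 10.6 CPM in KO and 5.30 CPM in the CRISPR control. Its difference of −1.07 ± 0.49 (log2, adjusted p = 0.122, edgeR) did not pass the test, although both KO libraries were under both wt libraries. At D0 the CRISPR control was already at 4.46 CPM, where wt and KO had 0.680 to 1.62 CPM. *3830417A13Rik*, for which no role is given here, stood at 55.4 and 49.5 CPM in wt at D15, 11.6 and 30.3 CPM in KO and 42.0 CPM in the CRISPR control, from 2.01 to 3 CPM at D0. The difference of KO from wt was −1.34 ± 0.36 (log2, adjusted p = 0.0218, edgeR), and the CRISPR control stood at 80.1% of the wt mean. That call was lost without KO replicate 1 at D15, where the difference was −0.79, and without wt replicate 1 (adjusted p = 0.104).

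Both KO libraries lay below both wt libraries at D15 for 10 of the 10 genes, an arrangement found for 37.1% of all genes tested and for 85.9% of the autosomal genes that met the same fold and level. KO replicate 2 was above KO replicate 1 for 9 of the 10, against 54.2% of all genes and 80.5% of those autosomal genes. The exception was *Asb12*, higher in replicate 1, and for *Aff2* the KO libraries were nearly equal. The median difference of KO from wt at D15 was −2.14 (log2) over the listed genes, −1.57 over the 24 unlisted X-linked genes, −1.52 over the autosomal genes of the same fold and level, 0.23 over all X-linked genes tested and −0.00 over all genes tested.

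The CRISPR control is described as carrying no deletion, although its libraries were deposited under names that number them among the KO libraries, and the labels were followed here. Its D15 library was below both wt libraries for 10 of the 10 genes (41.9% of all genes tested). It was at least 2-fold below the wt mean for 7 of them, *Amot*, *Bgn*, *Capn6*, *Arhgef6*, *Aff2*, *Asb12* and *C430049B03Rik* (8.11% of all genes, and 41.3% of the autosomal genes of the same fold and level). With 1 library a day these differences have no replicate check. In relation to the KO libraries at D15, it was above both for 7 genes, between them for 2 (*Arhgef6* and *C430049B03Rik*) and below both for *Asb12*. A fit of all 10 libraries, which assumes that the lone control varies like the other groups, called 3 of the 10 genes between KO and the CRISPR control, where 6.47% of all genes were called. *Capn6* (−1.67 ± 0.44, adjusted p = 0.0656) and *Arhgap6* (−1.92 ± 0.52, adjusted p = 0.0676) were lower in KO by edgeR, and *Asb12*, at 0 in the control, was higher (adjusted p = 0.0537). The number depended on the KO library, being 1 without KO replicate 1 and 7 without KO replicate 2. Its marker sums at D15 differed in which group they were near. Fibroblast and stroma markers summed to 831 CPM in the CRISPR control, within the range of the KO libraries. The 10 pluripotency markers summed to 3150 CPM there, within the 3140 to 3480 CPM of wt and below the 4560 to 5890 CPM of KO. The part of these cell types in the levels of the listed genes was not tested.

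All 10 genes still rose in the KO cells on differentiation, in libraries that the rule did not use. They were called higher at D15 than at D0 in KO, as were 20% of all genes tested, 90.1% of the autosomal genes of the same fold and level and each of the 24 unlisted X-linked genes. *Asb12* rose at least 12.7-fold against the floor of 3 counts. Among the other 9 the rise was largest for *Bgn* (4.37 ± 0.77 log2), *Arhgef6* (3.33 ± 0.50) and *3830417A13Rik* (3.26 ± 0.40), and smallest for *Aff2* (1.85 ± 0.45), *Dgkk* (1.67 ± 0.53) and *Capn6* (1.42 ± 0.39), with adjusted p from 0.000222 to 0.0246 over the 10 (edgeR). Without KO replicate 2 at D15 the rise of *Dgkk* was 0.50 (adjusted p = 0.279), and without KO replicate 2 at D0 that of *Capn6* was 0.93.

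In ES cells before differentiation fewer of the listed genes differed between KO and wt, which their choice by a low wt level at D0 and a high one at D15 favours. The KO effect at D15 minus that at D0 was called lower for 5 of the 10 by edgeR. That held for 1379 of the 13121 genes tested, and it too rests on libraries that chose the listed genes. At D0, 2 of the 10 genes were called lower, *Bgn* (−2.52 ± 0.82, adjusted p = 0.0783) and *Capn6* (−1.32 ± 0.39, adjusted p = 0.0594, edgeR), where 5.01% of all genes were called lower. Neither was called without replicate 2 of wt or KO at D0, without either wt library at D15, or when the CRISPR control was counted as wt. The *Bgn* reads of the wt ES libraries came mostly from the strain-129 allele, the future Xi, in 10 of 12 and 34 of 38 SNP reads. Fibroblast and stroma markers, which are autosomal, had 67.2% to 74.5% of their reads on the strain-129 genome in all D0 libraries and 47.0% to 50.6% at D15, and summed to 353 to 367 CPM in wt and 110 to 155 CPM in KO at D0. The part of feeder cells in the D0 level of *Bgn* was not tested.

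Families to which the listed proteins belong moved unevenly between KO and wt at D15. Of 12 small leucine-rich proteoglycans, relatives of *Bgn*, 5 were tested, all of which passed the filter on low counts through the wt D15 libraries alone and so could only be lower. They were called lower, with a median of −5.20 (log2), among them *Dcn* (18.1 and 17.7 CPM in wt, 0.476 and 0.257 CPM in KO) and *Fmod* (−6.69 ± 0.65, adjusted p = 0.000539). Of 17 genes of the Hippo pathway and angiomotin family, the setting of *Amot*, 7 were called lower, where 11.1% of all genes were, and 0 higher (median −0.62, 13 with an unadjusted p under 0.05), including *Cyr61* (354 and 312 CPM in wt, 55.1 and 97.1 CPM in KO) and *Ankrd1* (−2.5 ± 0.42, adjusted p = 0.00326), both known targets of YAP. Of the Asb proteins and Cullin 5, 1 of 12 was called lower, beside the same 11.1% of all genes (median of the list −0.03). It was *Asb4*, with 23.5 and 18.5 CPM in wt against 2.74 and 4.08 CPM in KO, which was also called lower at D0 (−1.98 ± 0.25, adjusted p = 0.0029, edgeR). No other calpain (9 tested), diacylglycerol kinase (6) or member of the AF4/FMR2 and *Fmr1* families (6) was called by edgeR, while 4, 2 and 3 of them had an unadjusted p under 0.05, and their medians were −0.06, −0.18 and −0.27. Over all genes tested the median was −0.00. In the CRISPR control at D15, *Dcn* (1.52 CPM), *Fmod* (0.0851 CPM), *Ankrd1* (4.33 CPM) and *Asb4* (4.05 CPM) were near KO, and *Cyr61* (136 CPM) was between KO and wt.

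Genes beside the listed ones on the chromosome were mostly not called. The nearest tested gene on each side gave 19 neighbours, of which *Plac1*, next to *C430049B03Rik*, met the same rule. Among the 19, *Alg13*, which lies near both *Amot* and *Capn6*, was called higher in KO at D15 (1.40 ± 0.16, adjusted p = 0.000636, edgeR) and 0 were called lower, although *Dusp9*, 152 kb from *Bgn*, was at −0.95 ± 0.17 (adjusted p = 0.00445), short of 2-fold. The median over the neighbours was 0.09. Of X-linked genes tested 11.8% were called lower, and of all 13121 genes tested 502 were called higher. Unlike the listed genes, the neighbours were not chosen for a rise in wt, so the calls of the 2 sets are not alike in choice.

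Across the 10 *Tsix*-stop libraries the listed genes followed one another, with a Pearson r of log2(CPM + 1) from 0.699 to 0.989 over their pairs and a median of 0.890. These libraries share days and genotypes, so r describes this set only. The choice favours a high r, since every listed gene was chosen for its rise between the wt libraries of D0 and D15, which are among these 10. A median r over other genes of the same fold was not worked out. By the highest r over the same 10 libraries, the X-linked gene most like *Amot* was *Col4a5* (0.991) and that most like *Dgkk* was *Amot* (0.989), while *Capn6* was most like *Bgn* (0.948). Among autosomal genes, *Bgn* was closest to *Col5a2* (0.998), *Aff2* to *Dkk2* (0.998), *Asb12* to *Lum* (0.998), *Arhgap6* to *Ptprb* (0.997) and *3830417A13Rik* to *Pdlim3* (0.997). *C430049B03Rik* had the least close autosomal match, *Tspan12* (0.968).

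**Figure D2:**
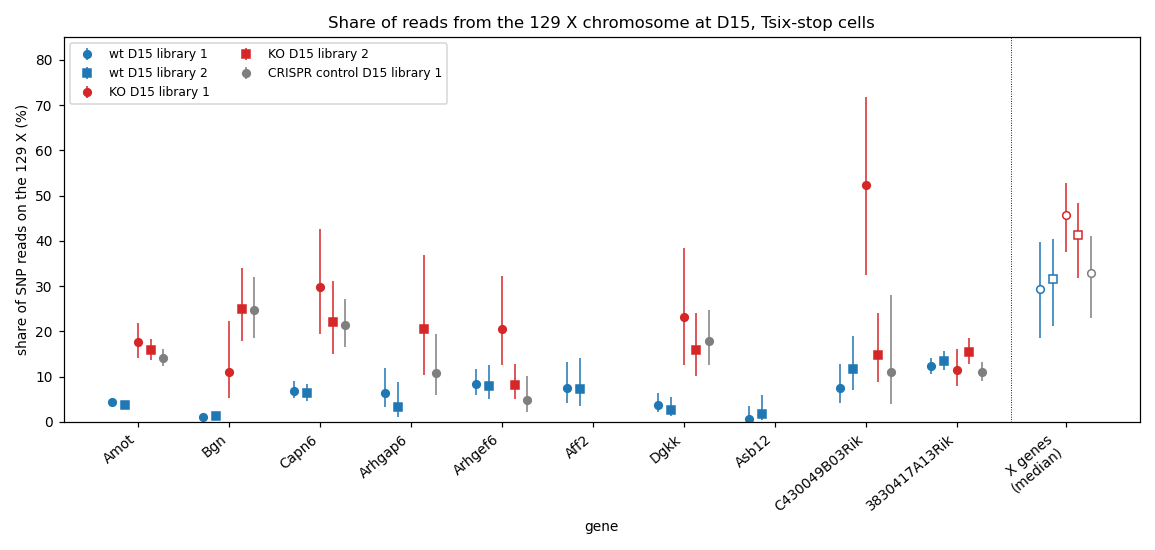
Share of SNP reads on the strain-129 X chromosome, the Xi (percent), at D15 in *Tsix*-stop cells, for each listed gene and library with at least 20 SNP reads, with 95% Wilson intervals that cover counting error only. Open symbols at the right give the median over X-linked genes with its quartiles. Listed genes lie at 0.637% to 13.5% in the wt libraries, below the X-wide medians of 29.3% and 31.6%.

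In wt cells at D15 the listed genes were read almost wholly from the *cast* Xa. Summed over the 10 genes, the Xi gave 4.89% of SNP reads in replicate 1 (95% Wilson interval 4.48% to 5.34%) and 4.73% in replicate 2, whereas the median X-linked gene had 29.3% and 31.6%. At D0 the same sum was 44.9% and 45.2%, from few reads. Ordered from the lowest Xi share at wt D15 among 400 X-linked genes, the 10 took ranks 7 (*Bgn*, 1.14%) to 58 (*3830417A13Rik*, 12.9%).

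Low shares were also found in switched-on genes that were not listed. Other X-linked genes that rose at least 8-fold in wt had a median Xi share of 4.61% at wt D15 (19 genes), those that rose 2- to 8-fold 20.7% (56 genes), those within 2-fold 32.2% (234 genes) and those that fell to less than 0.5-fold 37.7% (81 genes), beside 5.65% for the listed genes. The genes of these classes with enough reads in KO at D15 (15, 50, 230 and 77) had medians of 19.9%, 37.2%, 45.3% and 46.4% there, and the 7 listed genes with enough reads 18.1%. The median was thus higher in KO in every class and kept its order over the classes, although the genes in a class are not all the same in wt and KO. Fold and share come from the same wt D15 libraries, and these values are a description.

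**Figure D3:**
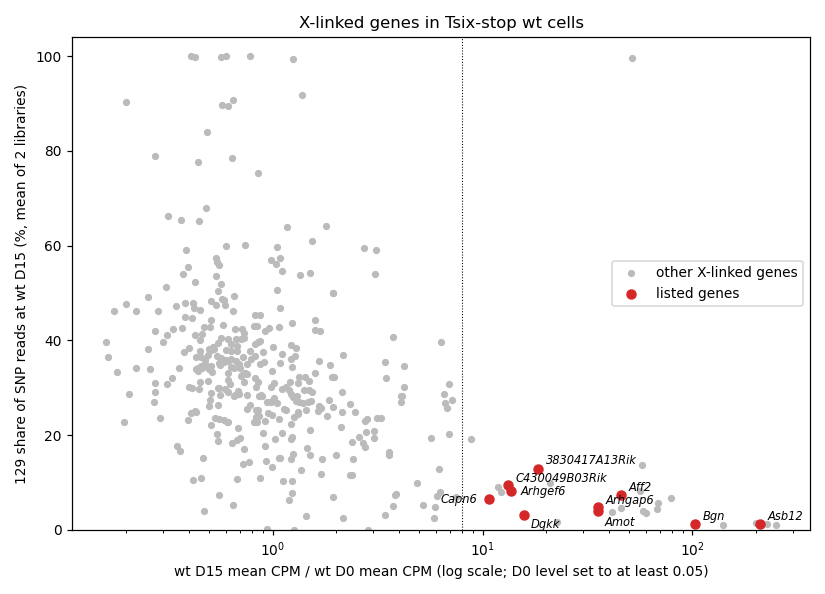
Share of SNP reads on the Xi at wt D15 (percent, mean of 2 libraries) against the fold between D15 and D0 in wt *Tsix*-stop cells (log axis), for X-linked genes with at least 20 SNP reads, with the listed genes in red and the dotted line at 8-fold. The listed genes sit at the lower right, from 1.14% to 12.9%, and the single gene near 100% beyond the line is *Xist*.

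In KO libraries the share of reads from the Xi was higher for part of the listed genes. Of the 10 genes 5 had an Xi share at D15 that was called higher in KO than in wt (edgeR on Xi and *cast* reads with a term for each library, FDR of at most 0.1), where 13.1% of all genes and 45.6% of X-linked genes were called higher, so that the listed genes were near the X-linked background. *Amot* had 178 of its 4173 SNP reads on the Xi in wt replicate 1 (4.27%) and 3.70% in replicate 2, and 17.6% and 15.8% in KO. *Bgn* had 0.995% and 1.29% in wt and 11.1% and 25.0% in KO, and *Capn6* 6.83% and 6.31% against 29.8% and 22.0%. In these 3 genes every KO library was above every wt library, and the log2 ratio of Xi to *cast* reads was higher in KO by 2.22 ± 0.14 for *Amot* (adjusted p = 5.5e-10), 4.46 ± 0.43 for *Bgn* (adjusted p = 2.43e-07) and 2.24 ± 0.33 for *Capn6* (adjusted p = 5.77e-05, edgeR). *Dgkk* (3.76% and 2.66% in wt, 23.1% and 15.9% in KO, adjusted p = 0.00139) and *Arhgap6* (6.30% and 3.16%, then 35.3% of 17 reads and 20.6%, adjusted p = 0.0152) were called too, the last with a log2 ratio of 2.31 without KO replicate 1 (adjusted p = 0.117) and of 2.36 without wt replicate 2 (adjusted p = 0.103), where it was not called.

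The other genes did not pass this test. *3830417A13Rik* was at 12.3% and 13.5% in wt and 11.4% and 15.4% in KO, with the groups overlapping, and *Arhgef6* was at 8.26% and 7.92% in wt and 20.6% and 8.16% in KO, so that only KO replicate 1 stood out. *C430049B03Rik* had 7.38% and 11.7% in wt and 14.8% in KO replicate 2, and 52.4% of only 21 reads in KO replicate 1. *Aff2* and *Asb12* had 3 to 17 SNP reads in each KO library, too few for a statement. The CRISPR control was near KO for *Amot* (14.1%), *Bgn* (24.7%), *Capn6* (21.4%) and *Dgkk* (17.8%), and near wt for *Arhgef6* (4.84%) and *3830417A13Rik* (10.9%). Its X-wide median, 32.9%, was close to the wt medians and not to those of KO (45.6% and 41.3%). With the CRISPR control counted as wt, 2 of the 10 genes were called.

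The reads behind these shares show on which allele the level differed. For *Bgn*, the SNP reads on *cast* were at 35.8 and 38.9 CPM at D15 in wt, at 0.816 and 1.49 CPM in the KO libraries and at 2.03 CPM in the CRISPR control (SNP reads of the allele, scaled to the library's total counts). Those on the Xi were at 0.359 and 0.506 CPM in wt, at 0.102 and 0.497 CPM in the KO libraries and at 0.664 CPM in the CRISPR control. The large gap lay on the *cast* Xa, while the Xi values of wt and KO came close together. For *Amot*, *cast* was at 62.4 and 49.5 CPM in wt, at 5.02 and 15.6 CPM in the KO libraries and at 20.8 CPM in the CRISPR control. Its Xi reads were at 2.78 and 1.90 CPM, 1.07 and 2.94 CPM and 3.41 CPM in the same order. Here too only the *cast* values of the groups were separate, and the Xi values overlapped. *Dgkk* followed the same course, with *cast* at 4.80 and 4.63 CPM in wt against 0.510 and 1.66 CPM in KO, and the Xi at 0.188 and 0.127 CPM against 0.153 and 0.313 CPM. On *cast* both KO libraries were below both wt libraries for 10 of the 10 genes, as for 31.9% of the 492 X-linked genes tested. The choice favours this gap, since the listed genes were chosen for a high level in the same wt D15 libraries. Their reads there were almost wholly on *cast*. On the Xi both KO libraries were below both wt libraries for 3, *Capn6*, *Aff2* and *3830417A13Rik*, as for 5.89% of the 492 X-linked genes. The groups overlapped for the other 7 listed genes, whereas 319 of the 492 X-linked genes had both KO libraries above both wt libraries there.

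**Figure D4:**
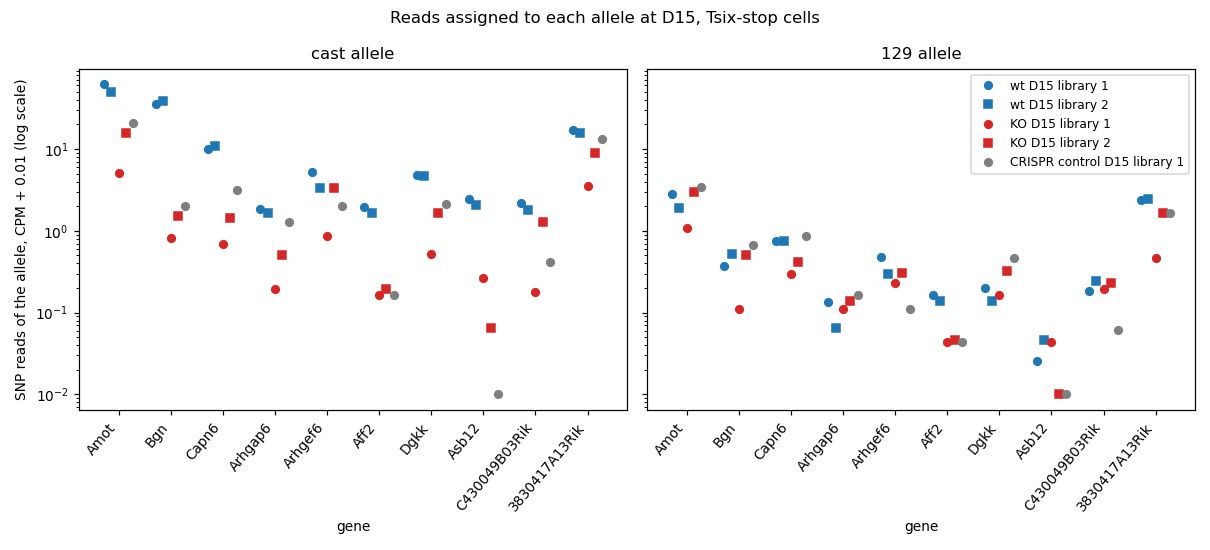
SNP reads as CPM plus 0.01 (log axis) on the *cast* Xa (left) and the strain-129 Xi (right) at D15 in *Tsix*-stop cells, with 1 point per library. On *cast* both KO points lie below both wt points for every listed gene, as for *Bgn* (35.8 and 38.9 against 0.816 and 1.49), while on the Xi the groups overlap for 7 of the 10.

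Before differentiation the share of no single listed gene was called different, on few reads. Of the 10 genes 0 were called at D0 by the same edgeR test, 1 having an unadjusted p under 0.05, where 7.37% of X-linked genes were called higher. Over the listed genes 37.0% and 38.4% of reads in KO were on the future Xi, beside 44.9% and 45.2% in wt and 45.2% in the CRISPR control. *Bgn*, with 44 of its 50 SNP reads in wt on the future Xi and only 7 SNP reads in KO, raises the wt sums. *Asb12* had no SNP reads in wt and KO at D0.

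E8 cells gave the opposite order of KO and wt. Their libraries stood apart from those of *Tsix*-stop cells in ways given here before their values. *Xist* was at 5.63 and 6.03 TPM in E8 wt at D7 and at 1.26 and 1.14 TPM at D15. It was at 0.257 to 0.523 TPM in E8 KO, beside 167 and 83.4 TPM in *Tsix*-stop wt at D15. The labelled D15 wt cells kept high pluripotency markers (10 genes, 17000 to 17800 TPM in sum, against 13400 to 13500 TPM at D7) and low fibroblast and stroma markers (98.0 to 119 TPM on both days), while KO had 914 to 921 TPM of the latter at D7 and 441 to 451 TPM at D15. Pluripotency markers in KO summed to 4610 to 4750 TPM at D7 and 7900 to 8110 TPM at D15. Visceral endoderm markers summed to 15.7 to 19.8 TPM in wt and to 1380 TPM at D7 and 318 to 320 TPM at D15 in KO. The part of these cell types in the listed genes was not tested. The replicates of a group differed by a median of 0.0361 to 0.0644 (absolute log2 ratio), less than the 0.121 to 0.169 of *Tsix*-stop cells, and the tests rest on that small spread. In position, 9 of the 10 genes, all but *Dgkk*, lie in the part of the X that is largely without *cast* reads in KO. There, 261 of 320 genes (81.6%) had at least 95% BL6 reads in KO, and the median difference of KO from wt was −0.71 (log2) at D7 and −0.63 at D15, against 0.25 and 0.37 for the 55 genes before it.

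Of the 10 genes 7 reached the filter of 2.5 TPM in 2 E8 libraries, and *Aff2*, *Arhgef6* and *Asb12* did not. Of these 7, *Bgn*, *Arhgap6*, *Dgkk* and *C430049B03Rik* reached it only through KO libraries and so could only be higher there, and *Amot*, *Capn6* and *3830417A13Rik* reached it in every library. At D15 all 7 were called higher in KO than in wt by limma on log2(TPM + 1), where 7.67% of all 12452 genes were, 6.84% of X-linked genes, and 58.6% of 735 autosomal genes that met the same fold and level in *Tsix*-stop wt cells.

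*Amot* was at 22.8 and 23.9 TPM in wt at D7 and 6.17 and 5.94 TPM at D15, and at 120 and 116 TPM and then 95.8 and 97.4 TPM in KO. All KO values were above all wt values, by 2.29 ± 0.04 (log2, limma, adjusted p = 6.67e-09) at D7 and 3.79 ± 0.04 (adjusted p = 2.19e-09) at D15. *Dgkk* went from 2.40 and 2.49 TPM to 0.712 and 0.657 TPM in wt, and had 18.9 and 17.7 TPM and then 12 and 11.9 TPM in KO, higher by 2.49 ± 0.05 and 2.94 ± 0.05. Both genes fell in wt between the days while KO stayed high.

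*Capn6* and *3830417A13Rik* had a small gap between KO and wt at D7 and a wide one at D15. *Capn6* had 12.8 and 13.4 TPM in wt and 15.6 and 14.9 TPM in KO at D7, then 5.57 and 6.24 TPM in wt and 29.6 and 29.8 TPM in KO, a difference of 2.15 ± 0.06 (log2). *3830417A13Rik* had 4.87 and 4.70 TPM in wt and 6.90 and 5.67 TPM in KO at D7, then 2.84 and 3.02 TPM in wt and 20.8 and 21.1 TPM in KO, a difference of 2.48 ± 0.08. *C430049B03Rik* stood at 0.492 and 0.488 TPM in wt and 1.76 and 1.76 TPM in KO at D7, and at 0.362 and 0.338 TPM and 4.63 and 4.65 TPM at D15. At D7 all KO libraries were above the wt libraries for these 3 genes too, with differences of 0.21 ± 0.06, 0.33 ± 0.08 and 0.89 ± 0.07 (adjusted p = 0.00995, 0.00637 and 9.40e-06, limma) that stayed under 2-fold on the log2(TPM + 1) scale, and at D15 all 3 were called. That scale understates the change of *C430049B03Rik*, which was at 1.65 and called at D7 with a pseudocount of 0.1.

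*Bgn*, the gene with the largest gap in *Tsix*-stop cells, was at 1.90 and 1.94 TPM in wt and 8.13 and 8.60 TPM in KO at D7, and at 2.21 and 2.31 TPM and 6.80 and 7.24 TPM at D15. *Arhgap6* was at 0.483 and 0.488 TPM in wt and 3.56 and 3.27 TPM in KO at D7, and at 0.218 and 0.264 TPM and 1.54 and 1.63 TPM at D15. KO was above wt for both on both days, by 1.68 ± 0.06 and 1.30 ± 0.06 for *Bgn* and by 1.57 ± 0.08 and 1.06 ± 0.08 for *Arhgap6* (log2(TPM + 1) scale, which understates the change of low values). At D7 the called genes were thus 4 of 7, *Amot*, *Dgkk*, *Bgn* and *Arhgap6*, against 11.4% of all genes called higher. Centring each library on its median autosomal gene shifts all differences at D7 by −0.23 and at D15 by −0.13, which turns the 1414 genes called higher and 770 called lower at D7 into 1033 and 1167, leaves the counts of listed genes at 4 and 7 and takes *Capn6* at D7 from 0.21 to −0.01. Among the 3 untested genes, *Asb12* was at most 0.0689 TPM in wt and 1.18 and 1.33 TPM in KO at D15, *Aff2* was at 0.249 and 0.263 TPM in wt and 0.485 and 0.560 TPM in KO, and *Arhgef6* at 1.27 and 1.18 TPM against 2.13 and 2.17 TPM.

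**Figure D5:**
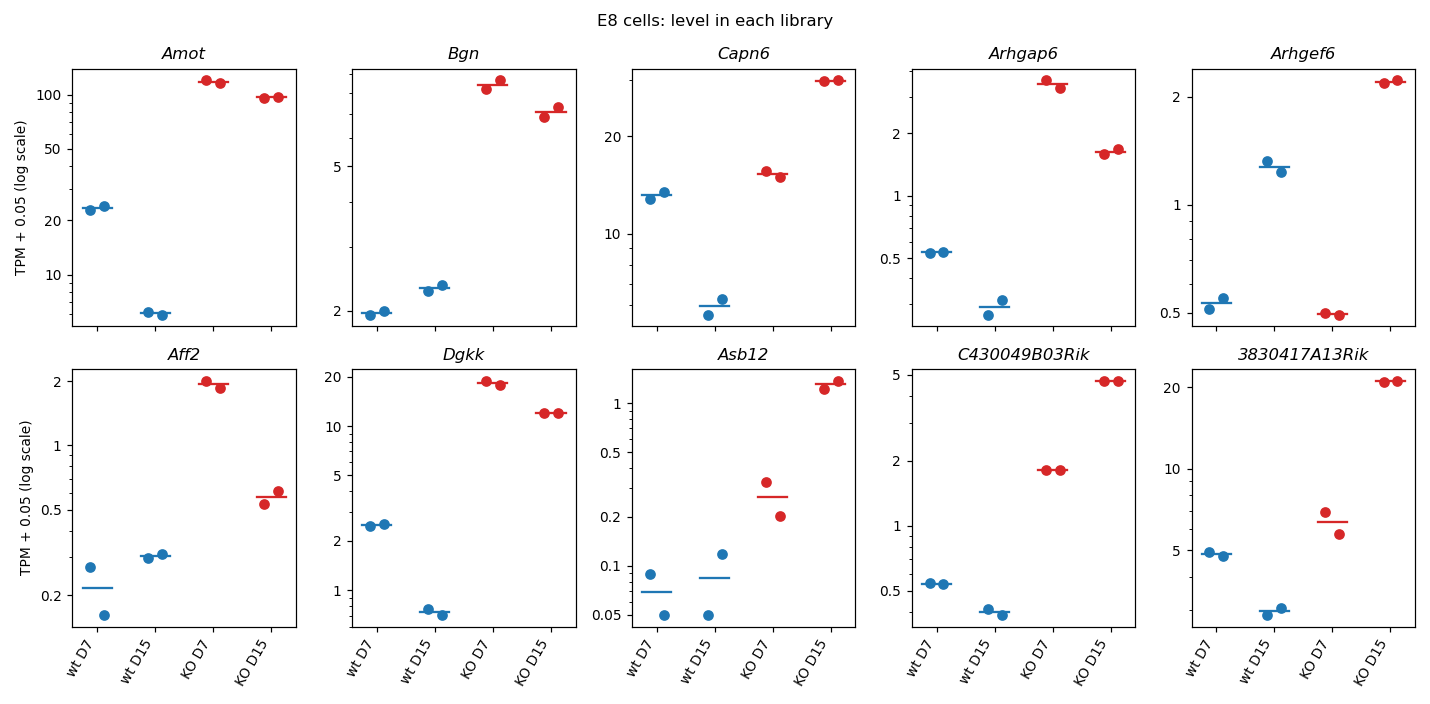
Level of each of the 10 listed genes in the 8 E8 libraries, as TPM plus 0.05 on a log axis that differs between panels, with 1 point per library and bars at group means (wt blue, KO red). At D15 both KO libraries lie above both wt libraries in every panel.

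Across the days, wt E8 cells lost *Amot* (−1.79), *Capn6* (−1.03) and *Dgkk* (−1.03), where 0.819% of all genes were called lower, and KO cells gained *3830417A13Rik* (1.60) and *C430049B03Rik* (1.03), where 3.41% were called higher (log2, limma). The difference of KO from wt was itself larger at D15 than at D7 for *3830417A13Rik* (by 2.15), *Capn6* (1.95), *Amot* (1.5) and *C430049B03Rik* (1.17), where 3.89% of all genes were called so. *C430049B03Rik* reached the filter on low values through the KO D15 libraries alone, which favours both its gain in KO and its larger difference at D15.

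By allele, BL6 and *cast* shares in E8 are known only after rescaling to equal shares of the median autosomal gene, as deposited shares of autosomal genes favoured *cast*. After it, *Amot* was 33.7% and 34% BL6 in wt at D7 and 46.0% and 51.4% at D15, and 99.8% to 100% in KO, where *cast* held 0.101 to 0.365 TPM. *Bgn*, *Capn6* and *Arhgap6* were listed at 0 on *cast* in every KO library. *Dgkk*, outside the region without *cast* reads, had 36.4% to 43.2% BL6 in KO and 30.8% to 62.1% in wt, so both of its alleles were read. *Arhgef6* (86.2% to 89.4% BL6) and *Aff2* (51.0% to 84%) kept *cast* reads in KO despite their position, at low levels. The median X-linked gene had 53.0% to 54.1% BL6 in wt.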

How the data were processed

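For *Tsix*-stop cells the values deposited by the authors are estimated counts of 75 bp single-end reads per gene, not normalized. Diploid expression was made with TopHat v2.0.14 per the methods, and allelic reads with bowtie2 on pseudo-genomes of mm10 (MAPQ of at least 30). The submitters' processing notes name Bowtie2 2.4.5 and TopHat2 2.1.1. Counts on the 129 genome were taken as diploid counts and rounded (7.10% were not whole), and intervals cover counting error only. For E8 cells the authors deposited TPM of each allele and of the gene. The annotation and strand setting are not given in the sources used here.

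Members and lists were chosen with earlier results of these data known. Named genes are the 10 listed genes, their nearest tested neighbours, the genes of highest correlation, the 5 unlisted genes of largest fold and the called members of fixed lists with the largest change in each direction, of which 1 gene and 1 list are not reported here. *Tsix*-stop wt and KO libraries were fitted together in edgeR 4.0.16 (R 4.3.3, TMM, at least 2.5 CPM in 2 libraries). E8 used limma 3.58.1 with a trend. DESeq2 1.42.0 was an alternative, and the tests were checked on simulated data. Figures used matplotlib 3.10.9. Of 24346 symbols 23310 matched GENCODE by symbol and 665 by a synonym. Sequences are RefSeq's (GRCm38.p6). Beside the fibroblast, visceral endoderm and pluripotency markers of the report, marker lists of cardiac muscle, skeletal and smooth muscle, neural cells and endothelium were read.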

Additional observations from a re-analysis of the deposited data

Results flagged for a closer look

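The difference between KO and wt at D15 had opposite signs in the 2 lines for the 7 listed genes tested in both, with every E8 KO library above every E8 wt library and every *Tsix*-stop KO library below every *Tsix*-stop wt library. In log2, *Amot* was at 3.79 in E8 and −2.10 in *Tsix*-stop cells, *Bgn* at 1.30 and −4.88, and *Capn6* at 2.15 and −3.35. *Arhgap6* was at 1.06 and −2.18, *Dgkk* at 2.94 and −1.72, *C430049B03Rik* at 2.06 and −1.07, a value that did not pass the test, and *3830417A13Rik* at 2.48 and −1.34. The difference between the lines was not tested, since one set holds TPM and the other counts. Of the autosomal genes of the same fold and level, 85.9% had both *Tsix*-stop KO libraries below both wt libraries, beside 37.1% of all genes tested. In E8 at D15, 58.6% of the 735 such genes tested were called higher in KO, beside 7.67% of all genes. How many genes showed both was not counted. The choice of genes favours both signs, since the listed genes were chosen for a high level in wt *Tsix*-stop libraries at D15, and *Bgn*, *Arhgap6*, *Dgkk* and *C430049B03Rik* passed the E8 filter on low values through KO libraries alone.

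Within E8, the difference of KO from wt was larger at D15 than at D7 by the interaction of genotype and day (limma, Benjamini-Hochberg adjustment) for *Amot* (1.5, adjusted p = 2.18e-06), *Capn6* (1.95, adjusted p = 3.03e-06), *C430049B03Rik* (1.17, adjusted p = 5.8e-05) and *3830417A13Rik* (2.15, adjusted p = 8.33e-06). For *C430049B03Rik* the filter on low values favours this result, since only the KO D15 libraries reached it.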

How the results depend on the processing

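With no filter on low counts, 3099 genes were called between KO and wt at D15, 1738 at D0 and 5665 between KO D15 and D0, since more genes were tested, against 1958, 1066 and 3625. With the CRISPR control counted as wt there were 1115 at D15, 20 at D0 (0 of the listed genes), 564 for the difference of the KO effect between the days against 2247, and 1053 for the Xi share against 2171 (2 listed genes). In E8 wt cells a pseudocount of 0.1 gave 332 genes between the days against 175, and the median BL6 share of the listed genes as deposited was 17.8% against 48.6%. The cause was not tested. Leaving out 1 library gave 1389 to 2282 genes and 4 to 10 listed genes at D15, 812 to 1136 and 0 to 2 at D0, 3368 to 3643 and 8 to 10 between KO D15 and D0, 1590 to 2557 for the difference between the days, and 368 to 1625 and 1 to 7 between KO and the CRISPR control. For the Xi share it gave 1463 to 1787 and 4 to 7. In E8 it gave 2078 to 2182 and 3 to 4 at D7, 1276 to 1377 and 6 to 7 at D15, 172 to 192 and 2 to 3 in wt, 713 to 767 and 1 to 2 in KO, and 861 to 956 and 3 to 4 for the interaction. Replicate numbers share no stated source. With them as a replicate block 2005 genes were called at D15 (8 listed genes, *Arhgef6* at −1.12 with adjusted p = 0.104, edgeR), 1057 at D0 and 3626 between KO D15 and D0, and in E8 2188, 1340, 177 and 766 in the order D7, D15, wt and KO. With crossed pairs, an alternative chosen after seeing the data like those with KO against the CRISPR control, 2004 were called at D15 and 2190 in E8 at D7. Signs turned, all below the test's threshold save 1. At D0, leaving out 1 library gave *Amot* −0.10 to 1.05, *Aff2* −0.55 to 1.12 (also −0.05), *C430049B03Rik* −0.02 to 1.18 and *Arhgap6* −0.55 to 0.42 (also −0.24). With the CRISPR control added *C430049B03Rik* was at −0.53 and *Arhgap6* at −0.04, the latter −0.03 with the block and −0.06 crossed. *Capn6* in E8 at D7 was at −0.01 on centring. For *3830417A13Rik* at D15, the difference of KO from wt in the log2 ratio of Xi to *cast* reads ranged from −0.18 to 0.31. Between KO and the CRISPR control, *Arhgef6* ranged from −1.02 (without KO replicate 2, adjusted p = 0.0767, edgeR) to 0.64 and *C430049B03Rik* was at −0.51 without KO replicate 2. Of 958 values of single genes under alternatives, 899 kept direction and call. With 2 libraries a group an exact permutation test cannot go below 0.333, and depth limits the allele shares of *Aff2*, *Asb12* and *Arhgap6* in KO.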

Other observations

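Of all genes tested between KO and wt at D15 in *Tsix*-stop cells, 11.1% were called lower in KO and 3.83% higher. Of the remaining marker lists, 5 of 6 cardiac genes tested were called lower (median −1.90), among them *Myh7* (13.2 and 17.4 CPM in wt, with the KO libraries at 1.26 and 1.62 CPM), a heavy chain of heart and slow muscle myosin. *Myh6* and *Myh7* passed the filter on low counts through wt D15 libraries alone, so they could only be lower. Smooth muscle *Acta2* (1060 CPM in both wt libraries, 180 and 305 CPM in KO) and *Tagln* were 2 of 3 muscle genes called lower, and *Kdr* and *Cdh5* 2 of 5 endothelial genes. Of 5 neural genes *Tubb3* and *Map2* were called higher and *Nes* lower, and 4 of 10 pluripotency genes were called higher (median 0.93), with *Klf2* at 298 and 248 CPM in KO against 107 and 132 CPM in wt. In the CRISPR control at D15 *Klf2* was at 122 CPM, *Acta2* at 134 CPM and *Myh7* at 3.03 CPM.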
